A study of Mus musculus with 12 samples.

Results

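Mast cell genes were followed in mouse dermis by RNA sequencing. The set held 8 genes, chosen by mouse gene symbol and matched to the gene identifiers of the deposited table, out of 55401 genes in that table. They were the granule proteases Cpa3, Cma1, Mcpt4, Tpsb2 and Tpsab1, the IgE receptor chains Fcer1a and Ms4a2, and the peptide receptor Mrgprb2. The rule used symbols alone, and all 8 were found. The dermis came from C57BL/6 mice aged 6 weeks that were either wild type (WT) or lacked Cthrc1 (Cthrc1-/-), which encodes a secreted protein with a collagen triple helix repeat. The experiment used paired wounds of equal size and was sampled on days 0 and 7, and each of the 4 groups (WT or Cthrc1-/-, on either day) had 3 biological replicates, 12 samples in all. Both genotypes were wounded, no drug or transgene is named in the labels, and the deletion is given as a plain genotype with no promoter or cell type attached. The labels do not say whether day 0 dermis was unwounded or freshly wounded, and no group is labelled as unwounded on day 7. How the 3 replicates relate to animals or to wounds of 1 animal is not given in the sources used here, so p-values measure the spread between these samples.

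Mast cells are tissue-resident immune cells that mature in the skin under the receptor Kit and its ligand, stem cell factor. Their granules store histamine, heparin and large amounts of neutral proteases, and they release these when IgE bound to the high-affinity receptor Fc epsilon RI is cross-linked, or when Mrgprb2 senses cationic peptides and drugs. In skin wounds they lie in the dermis near vessels and nerves and are among the cells that react early to injury.

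The values are FPKM (fragments per kilobase of transcript and per sequencing depth, deposited by the authors and comparable between genes because they are per unit of length) and whole-number counts. The libraries held from 48329668 to 76938132 counts each, and 3 counts, taken as the floor of detection, correspond to between 0.039 and 0.0621 CPM (counts scaled to library size). Cthrc1 itself held at least 1813 counts in each WT library and at most 15 in each Cthrc1-/- library, as labelled. A pair of libraries stood apart. WT day 7 replicate 1 had summed neutrophil markers (S100a8, S100a9, Ly6g, Cxcr2 and Retnlg) of 4927 FPKM, against 37.6 and 737 in the other WT day 7 libraries. Cthrc1-/- day 0 replicate 3 had the highest summed hair follicle keratins of the 12 samples (9647 FPKM) and the lowest summed fibroblast markers (337 FPKM).

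The label of the set was checked against the markers of the cells closest to mast cells. Across the 12 samples the summed FPKM of the 8 mast cell genes lay between 14.7 and 139.8. Basophil markers (Mcpt8, Prss34, Cd200r3 and Cyp11a1) summed to at most 1.69 FPKM in any sample, and Prss34, a basophil protease, was at 0 in 7 of the 12. The basophil sum was nonetheless separate between the days, at 0.262 to 0.384 FPKM on day 0 and 1.06 to 1.37 on day 7 in WT, and at 0.235 to 0.521 and 0.791 to 1.69 in Cthrc1-/-. Of its genes Cyp11a1 and Mcpt8 had the highest medians over the samples (0.444 and 0.313 FPKM). Cd200r3, which reached at most 0.189 FPKM, is also on the list of mast cell receptors read further on. Eosinophil markers (Epx, Prg2, Siglecf, Ear1 and Ear6) summed to at most 2.24 FPKM, with eosinophil peroxidase Epx at 0 in 11 of 12. The intestinal mucosal mast cell proteases Mcpt1 and Mcpt2 reached at most 0.104 FPKM and 0.0608 FPKM, and the related Mcpt9 was at 0. The connective tissue protease Mcpt4 was at 6.86 FPKM or more in every sample. Mcpt4, with Cma1, Cpa3 and tryptase, is known from the connective tissue type of mast cell that populates skin.

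The promoters of the set are shown because their genes belong to 1 lineage in which the transcription factor Gata2 is known to act. RefSeq (assembly GRCm38.p6) gave a promoter for 6 of the 8 members, and the 150 bases before each start are printed 5′ to 3′ on the strand of the gene. The windows are chr3:20242182-20242331 for Cpa3, chr14:55944676-55944825 for Cma1, chr14:56062311-56062460 for Mcpt4, chr1:173227230-173227379 for Fcer1a, chr19:11623720-11623869 for Ms4a2 and chr7:48558087-48558236 for Mrgprb2, all on the minus strand. Capitals mark matches to the GATA motif, spelled AGATAA with T also allowed as its first letter and G as its last, and searched on both strands, so that a match on the opposite strand appears as its reverse complement.
Cpa3: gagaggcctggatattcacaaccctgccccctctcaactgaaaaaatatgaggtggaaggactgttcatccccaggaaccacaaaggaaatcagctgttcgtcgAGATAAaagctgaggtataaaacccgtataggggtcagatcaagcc
Cma1: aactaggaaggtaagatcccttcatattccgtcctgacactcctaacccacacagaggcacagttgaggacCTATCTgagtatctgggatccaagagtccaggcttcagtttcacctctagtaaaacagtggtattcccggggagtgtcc
Mcpt4: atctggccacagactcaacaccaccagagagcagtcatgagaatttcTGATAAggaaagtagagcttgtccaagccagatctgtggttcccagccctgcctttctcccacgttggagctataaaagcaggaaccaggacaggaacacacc
Fcer1a: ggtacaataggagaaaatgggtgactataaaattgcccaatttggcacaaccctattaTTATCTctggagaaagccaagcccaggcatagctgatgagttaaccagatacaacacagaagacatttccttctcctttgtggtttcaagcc
Ms4a2: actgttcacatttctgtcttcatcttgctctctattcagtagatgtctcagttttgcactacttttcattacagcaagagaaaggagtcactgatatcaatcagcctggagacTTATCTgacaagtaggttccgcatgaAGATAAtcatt
Mrgprb2: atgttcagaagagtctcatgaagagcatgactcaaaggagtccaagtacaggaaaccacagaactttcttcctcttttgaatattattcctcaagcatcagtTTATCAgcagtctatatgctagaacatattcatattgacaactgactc

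All 6 promoters held at least 1 match within the 250 bases searched, against 26.5% of the 32851 promoters of full length in the same table. In Cpa3 the match lay 46 to 41 bases before the start on the strand of the gene, and in Mcpt4 103 to 98 bases before it. Cma1 (79 to 74), Fcer1a (92 to 87) and Mrgprb2 (48 to 43) carried theirs on the opposite strand. Ms4a2 had 3, of which 2 lie in the window shown, at 37 to 32 and 11 to 6 bases before the start. These are matches of letters, and no binding was measured here. The promoters behind the 26.5% were not matched to the 6 for base composition, and the part of Gata2 in the levels was not tested.

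Granule proteases made up nearly all of the signal of the set. Cpa3, Cma1, Mcpt4 and Tpsb2 supplied between 96.2% and 98.5% of the summed FPKM of the 8 genes in each sample (median 97.5%). In each of the 12 samples Mcpt4 was the most abundant and Cma1 the next, per unit of length, with Cpa3 and Tpsb2 below them at like levels.

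Cpa3 encodes mast cell carboxypeptidase A, which is stored in the granule with heparin and trims peptides from their C-terminal end (ENSMUSG00000001865, chr3:20215620-20242181 on GRCm38, minus strand, protein-coding). Its FPKM was 4.77, 7.85 and 5.32 in WT day 0 and 7.73, 5.05 and 1.51 in Cthrc1-/- day 0. By day 7 the WT samples had 16.8, 12.8 and 10.9, and those of Cthrc1-/- mice 22.9, 19.1 and 7.66. All 3 WT samples of day 7 lay above all 3 of day 0, whereas in Cthrc1-/- the lowest day 7 sample was just under the highest day 0 sample. The group means stood in the order Cthrc1-/- day 0 (4.77 ± 3.12, SD, n = 3), WT day 0 (5.98 ± 1.64), WT day 7 (13.5 ± 3.04) and Cthrc1-/- day 7 (16.5 ± 7.91), and within each day the genotypes overlapped.

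Cma1 encodes the chymase mouse mast cell protease 5 (ENSMUSG00000022225, chr14:55941451-55944675, minus strand). It was at 12.4, 13.3 and 16.6 FPKM in WT day 0, and Cthrc1-/- mice had 14.5, 10.8 and 4.48 on that day. WT day 7 samples had 35.1, 19.6 and 19.3, and Cthrc1-/- day 7 samples 36.8, 40.5 and 14.4. Here too the days did not overlap in WT, and the third Cthrc1-/- replicate was the lowest of its group on both days.

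Mcpt4 encodes the chymase that most resembles human chymase in what it cleaves, and it lies in the same protease cluster on chromosome 14 as Cma1 (ENSMUSG00000061068, chr14:56059629-56062313, minus strand). WT day 0 samples had 22.3, 24.1 and 27.4 FPKM, and Cthrc1-/- day 0 samples 28.3, 21.9 and 6.86. On day 7 the WT samples had 48.03, 35.7 and 34.8, and the Cthrc1-/- samples 54.6, 54.1 and 25.8. The spread within WT day 0 was small (24.6 ± 2.6 FPKM, SD, n = 3), and that within Cthrc1-/- day 7 wide (44.9 ± 16.5 FPKM).

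Tpsb2 encodes the tryptase mouse mast cell protease 6, which acts as a heparin-bound tetramer (ENSMUSG00000033825, chr17:25366305-25369098, plus strand). WT samples had 5.62, 6.29 and 6.66 FPKM on day 0 and 19.7, 11.6 and 10.9 on day 7. Cthrc1-/- samples had 4.76, 4.88 and 1.67 on day 0 and 20.9, 16.05 and 6.67 on day 7. Of the proteases, Tpsb2 was the one whose genotypes were separate on day 0, each Cthrc1-/- sample being below each WT sample. It was also the one whose days were separate in both genotypes.

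**Figure D1:**
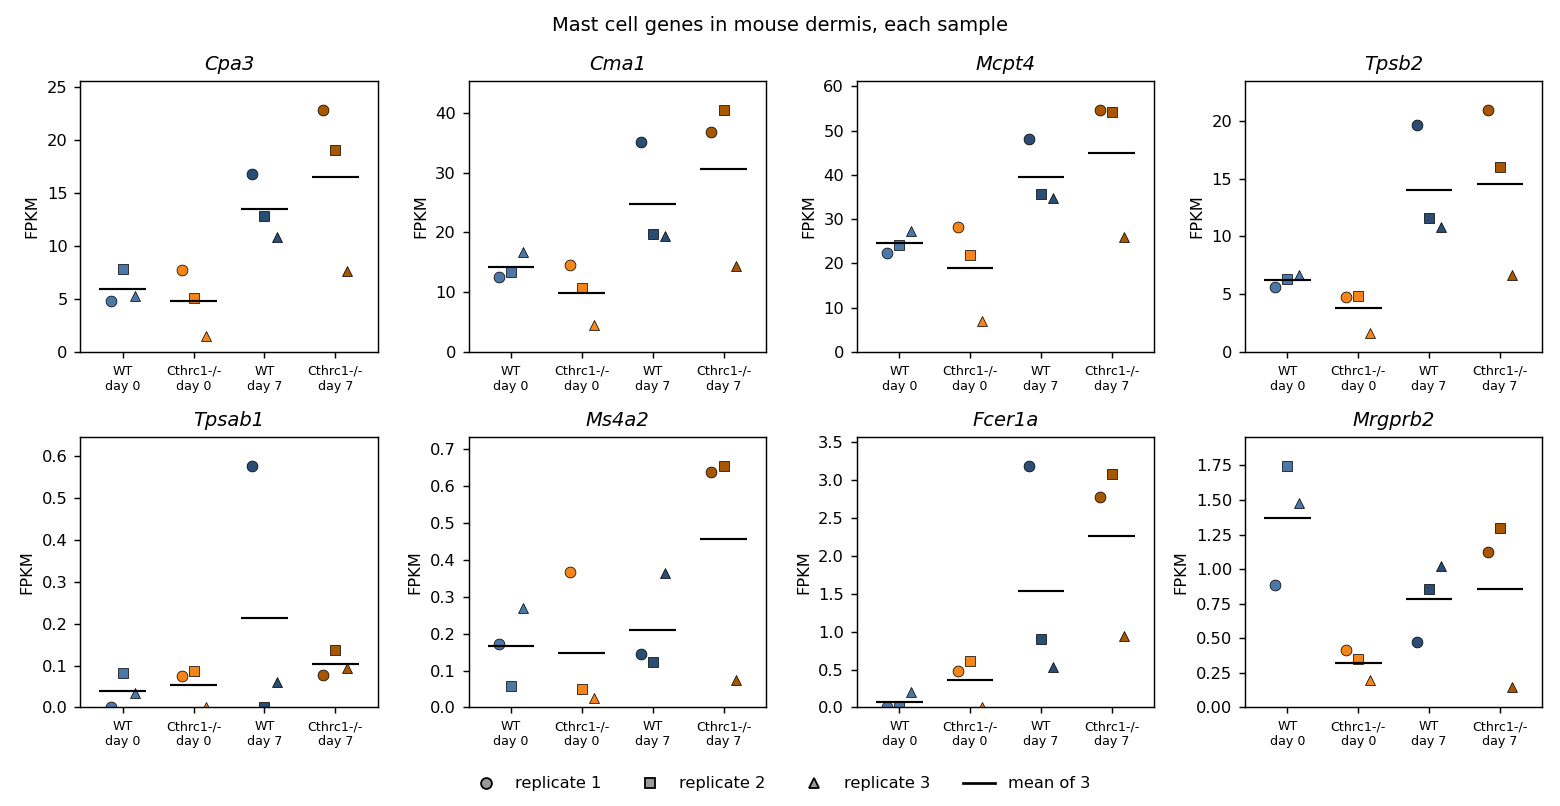
FPKM of the 8 mast cell genes (1 panel each, linear axes from 0) in the 4 groups; each symbol is 1 sample, its shape the replicate number, and the line the mean of 3. The 4 abundant proteases share 1 pattern, with all WT day 7 samples above all WT day 0 samples, and Cthrc1-/- replicate 3 is the lowest of its group on both days in each of those 4 panels.

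None of these differences passed the test. A quasi-likelihood test of edgeR on the counts of all 12 samples (two-sided, adjusted by the Benjamini-Hochberg method over the 14313 genes whose mean FPKM was 1 or more, called at an adjusted p under 0.05) had 5 of the 8 members in it: Cpa3, Cma1, Mcpt4, Tpsb2 and Fcer1a. The last, at a mean of 1.06 FPKM, passed the filter through its day 7 levels. The other 3, at mean FPKM of 0.833 (Mrgprb2), 0.246 (Ms4a2) and 0.102 (Tpsab1), were tested in the same fit run without the filter, over 34303 genes. That fit called 0 of these 3 in each comparison, beside 0.802% of all its genes for genotype on day 0, 0.00875% on day 7, 3.77% between the days in WT, 0.464% in Cthrc1-/- and 0.00292% for the interaction, and Mrgprb2 alone of the 3 had an unadjusted p under 0.05, on day 0 and in the interaction.

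Between the days, edgeR called 0 of the 5 members in WT, where 13.1% of all genes tested were called, and 0 of 5 in Cthrc1-/-, where 1.46% were. At an unadjusted p under 0.05 there was 1 of 5 in WT (Fcer1a) and 3 of 5 in Cthrc1-/- (Cpa3, Cma1 and Tpsb2), beside 32.5% and 18.1% of all genes tested. In WT, day 7 stood to day 0 at a log2 difference of 1.01 ± 0.58 (SE) for Cpa3 (edgeR adjusted p = 0.254), 1.02 ± 0.51 for Tpsb2 (adjusted p = 0.193), 0.65 ± 0.51 for Cma1 (adjusted p = 0.408) and 0.52 ± 0.48 for Mcpt4 (adjusted p = 0.491). In Cthrc1-/- the log2 differences were 1.76 ± 0.52 for Tpsb2 (edgeR adjusted p = 0.112), 1.60 ± 0.58 for Cpa3 (adjusted p = 0.183), 1.44 ± 0.52 for Cma1 (adjusted p = 0.177) and 1.05 ± 0.48 for Mcpt4 (adjusted p = 0.282). The median log2 difference of the 4 proteases, without Fcer1a because its day 7 levels carried it past the filter, was 0.83 in WT and 1.52 in Cthrc1-/-, while that of all genes tested was -0.002 and -0.013. Scaling to total counts in place of edgeR's TMM factors moved the medians of all genes to 0.196 and 0.158, and the share of called genes that were higher from 46.0% to 75.5% in WT and from 58.9% to 86.9% in Cthrc1-/-. Other tools gave a few calls. DESeq2, which called 9.84% of all genes in Cthrc1-/-, called Tpsb2 (adjusted p = 0.0105) and Cpa3 (adjusted p = 0.0499) there. In the same comparison limma on log2(FPKM + 1) called Tpsb2 (adjusted p = 0.0447), as did edgeR with scaling to total counts (adjusted p = 0.0449).

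The size of the day difference moved with single libraries, among them those that stood apart. With single libraries left out, the WT log2 differences ran from 0.84 to 1.25 (Cpa3), 0.71 to 1.22 (Tpsb2), 0.37 to 0.65 (Mcpt4) and 0.31 to 0.84 (Cma1). Those of Cthrc1-/- ran from 1.39 to 2.11 (Tpsb2), 1.16 to 2.17 (Cpa3), 1.07 to 1.85 (Cma1) and 0.64 to 1.49 (Mcpt4). Without WT day 7 replicate 1 the WT log2 differences were 0.84 for Cpa3, 0.71 for Tpsb2, 0.37 for Mcpt4 and 0.31 for Cma1. Without Cthrc1-/- day 0 replicate 3 the Cthrc1-/- log2 differences were 1.39 for Tpsb2, 1.16 for Cpa3, 1.07 for Cma1 and 0.64 for Mcpt4. None was called in either fit, where 8.35% of all genes tested were called in the WT comparison and 3.65% in that of Cthrc1-/-. The interaction of genotype and day, which tests whether the day difference itself differs between genotypes, gave 0 of 5 members called by edgeR (0.014% of all genes tested were), 0 at an unadjusted p under 0.05 (15.1% of all genes), and log2 values between 0.54 and 0.79 for the 4 proteases with SEs between 0.68 and 0.81. DESeq2 and limma on log2(FPKM + 1) also called 0 of 5. In bulk dermis, fewer cells of a type and less RNA per cell cannot be told apart, so these levels are not counts of mast cells.

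Between genotypes, none of the 4 proteases passed the test of edgeR. On day 0, edgeR called 0 of the 5 members while it called 5.78% of all genes tested, and 0 of 5 had an unadjusted p under 0.05, where 28.4% of all genes did. DESeq2 and limma on log2(FPKM + 1) called 0 of 5 as well. The log2 difference of Cthrc1-/- from WT on day 0 was -0.79 ± 0.51 for Tpsb2 (edgeR adjusted p = 0.328), -0.59 ± 0.51 for Cma1 (adjusted p = 0.471), -0.45 ± 0.48 for Mcpt4 (adjusted p = 0.563) and -0.39 ± 0.57 for Cpa3 (adjusted p = 0.677). For Cma1, Mcpt4 and Cpa3 most of this rested on Cthrc1-/- day 0 replicate 3. Without that library the values were -0.42 (Tpsb2), -0.21 (Cma1), -0.03 (Mcpt4) and 0.04 (Cpa3). On day 7 the log2 differences were 0.20 ± 0.57 for Cpa3, 0.20 ± 0.51 for Cma1, 0.09 ± 0.48 for Mcpt4 and -0.05 ± 0.50 for Tpsb2, each with an edgeR adjusted p of 0.998. By edgeR 0 of 5 members were called on day 7, against 0.021% of all genes tested, and 0 had an unadjusted p under 0.05 (5.46% of all genes), with DESeq2 and limma on log2(FPKM + 1) again at 0. The sign of all 4 day 7 values turned when single libraries were left out, over ranges of -0.11 to 0.54 (Cpa3), -0.06 to 0.63 (Cma1), -0.07 to 0.38 (Mcpt4) and -0.41 to 0.36 (Tpsb2).

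The tissue around the mast cells differed between the same groups. On day 0 the summed fibroblast markers (Col1a1, Col1a2, Col3a1, Dcn, Lum and Pdgfra) ran from 4814 to 6441 FPKM in WT and from 337 to 2386 in Cthrc1-/-, with 1 of the 6 called lower by edgeR, as 2.26% of all genes tested were. The summed hair follicle keratins (Krt25, Krt27, Krt71 and Krt73) ran from 0.472 to 2.67 FPKM in WT day 0 and from 183 to 9647 in Cthrc1-/- day 0, with 4 of 4 called higher (3.51% of all genes tested were). In WT from day 0 to day 7 the hair follicle keratins again gave 4 of 4 called higher (1474 to 3305 FPKM on day 7), neutrophil markers 3 of 5 called higher, and adipocyte markers (Adipoq, Plin1 and Cidec) 3 of 3 called lower. Without WT day 7 replicate 1 these counts were 4 of 4, 2 of 5 and 0 of 3.

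Macrophage and endothelial markers shared part of the order of the proteases. The summed macrophage markers (Adgre1, Cd68, Csf1r, C1qa and C1qb) ran from 178 to 193 FPKM on day 0 and from 200.3 to 675 on day 7 in WT, and from 63.2 to 135 and 267 to 350.5 in Cthrc1-/-. They were thus separate between the days in both genotypes and lower in Cthrc1-/- on day 0. On day 7 their median was lower in Cthrc1-/- (294 FPKM) than in WT (364), whereas that of each abundant protease was higher. The summed endothelial markers (Pecam1 and Cdh5) ran from 34.5 to 35.3 FPKM on day 0 and from 33.4 to 86.8 on day 7 in WT, and from 10.3 to 28.1 and 54.7 to 99.3 in Cthrc1-/-. In WT the endothelial sums overlapped between the days, whereas each abundant protease was separate there. Cthrc1-/- day 0 replicate 3 had the lowest sum of both marker sets. By edgeR 0 of the 7 were called in any comparison, where from 0.014% (interaction) to 13.1% (days in WT) of all genes tested were. Between the days in Cthrc1-/- 5 of 5 macrophage and 2 of 2 endothelial markers had an unadjusted p under 0.05 (18.1% of all genes did). The part of all these markers in the mast cell values was not tested.

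**Figure D2:**
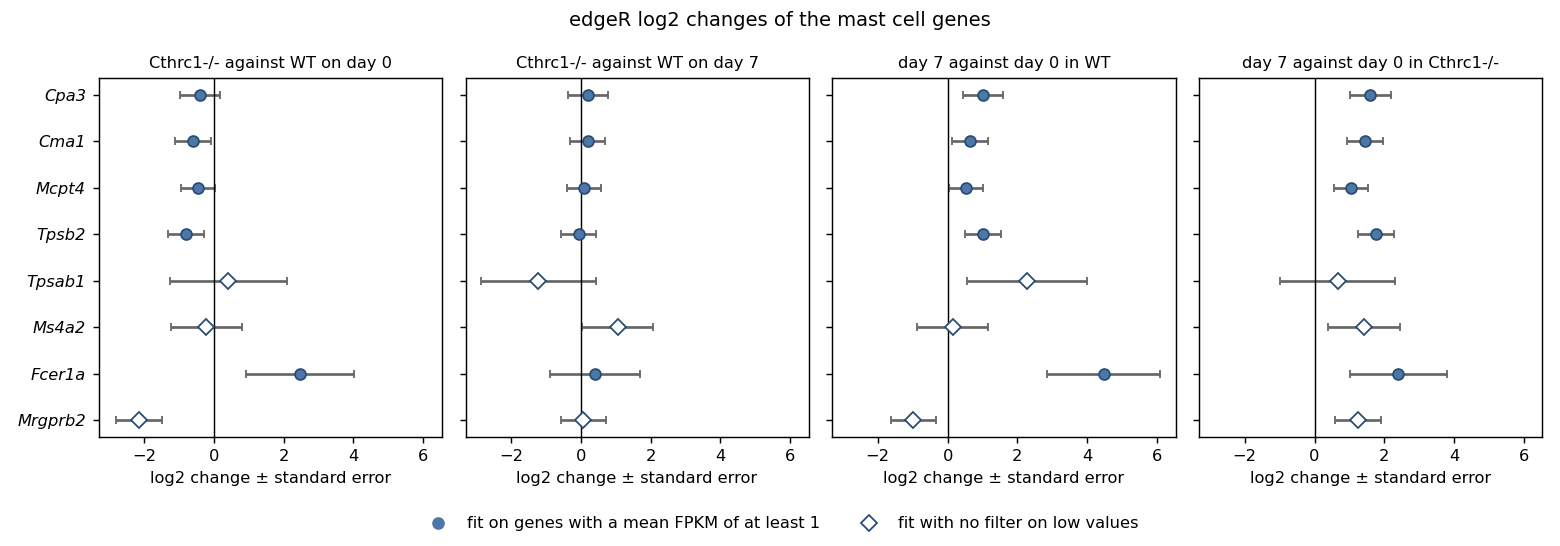
Log2 difference of each mast cell gene with its standard error (edgeR) in the 4 comparisons; filled circles are the 5 genes whose mean FPKM was 1 or more, and open diamonds the 3 tested in the fit with no filter on low values. The 4 abundant proteases lie to the right of 0 in both comparisons of the days and close to 0 between genotypes on day 7, where Tpsab1 is at -1.21 ± 1.64. Mrgprb2 on day 0 (-2.14 ± 0.67) lies farthest to the left.

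Fcer1a, the alpha chain of Fc epsilon RI that binds IgE, was at 38 counts or fewer in every day 0 sample and at 38 or more in every day 7 sample (ENSMUSG00000005339, chr1:173221284-173227214, minus strand). Its counts were 0, 0 and 11 in WT day 0, and 35, 38 and 0 in Cthrc1-/- day 0. WT samples of day 7 held 220, 69 and 38, and those of Cthrc1-/- mice 219, 238 and 65. In FPKM, day 7 samples ran from 0.534 to 3.19 in WT and from 0.940 to 3.08 in Cthrc1-/-, above every day 0 sample of their genotype, the highest of which were 0.204 and 0.613. The log2 difference between the days was 4.47 ± 1.61 in WT (edgeR adjusted p = 0.0868) and 2.40 ± 1.38 in Cthrc1-/- (adjusted p = 0.390). DESeq2 put the WT value past the threshold (adjusted p = 0.0294, with 24.8% of all genes called). So did limma on log2(FPKM + 0.1) (adjusted p = 0.0462, with 1998 of all genes called), and limma on log2(FPKM + 1) did not. These fits held Fcer1a because its day 7 levels carried it past the filter. With no filter the WT value was 4.48 ± 1.59 (edgeR adjusted p = 0.146). Limma on log2(FPKM + 0.1) then called 0 of the 8 members in WT (1646 of all genes), and DESeq2 called 1 (4215 of all genes). With the filter and without WT day 7 replicate 1 the WT value was 3.36 (edgeR adjusted p = 0.200). All 11 counts of WT day 0 came from its replicate 3, and with that library left out the fitted WT value was 9.81 (adjusted p = 0.0744), which depends on the prior count because the group is then at 0. Without Cthrc1-/- day 0 replicate 3 the Cthrc1-/- value was 1.83. Cthrc1-/- stood to WT at 2.47 ± 1.56 on day 0 (edgeR adjusted p = 0.319) and 0.41 ± 1.29 on day 7 (adjusted p = 0.998). With single libraries left out the day 0 value ran from 1.80 to 7.81, the highest again without WT day 0 replicate 3, and the day 7 value from -0.02 to 1.62. Basophils also carry Fc epsilon RI, and their summed markers were separate between the days as Fcer1a was; their part in the Fcer1a values was not tested.

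Ms4a2, the beta chain that amplifies signalling from the same receptor, reached at most 0.656 FPKM (ENSMUSG00000024680, chr19:11615523-11623719, minus strand). WT samples had 0.173, 0.0569 and 0.271 FPKM on day 0 and 0.146, 0.123 and 0.365 on day 7. Cthrc1-/- samples had 0.367, 0.0505 and 0.0251 on day 0 and 0.640, 0.656 and 0.0758 on day 7. All groups overlapped. The counts behind these values lay between 4 and 143, and with no filter the edgeR log2 differences carried SEs of about their own size, such as 1.42 ± 1.03 between the days in Cthrc1-/- (adjusted p = 0.604) and 1.06 ± 1.02 between genotypes on day 7 (adjusted p = 0.954). The difference between the days in Cthrc1-/- was 0.92 without Cthrc1-/- day 0 replicate 3 and ran from 0.92 to 3.37 with single libraries left out. Within Cthrc1-/- day 7, replicate 3 was the low sample, as it was for the 4 abundant proteases. The gamma chain Fcer1g, which mast cells share with macrophages, neutrophils and other cells that carry Fc receptors, ran from 6.89 to 259 FPKM.

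Mrgprb2, unlike the proteases, had its highest group mean in WT day 0. It encodes the mast cell receptor for basic secretagogues, the mouse counterpart of human MRGPRX2 (ENSMUSG00000050425, chr7:48550965-48558086, minus strand). WT day 0 samples had 0.888, 1.75 and 1.48 FPKM (108, 310 and 166 counts) and Cthrc1-/- day 0 samples 0.412, 0.351 and 0.196 (62, 45 and 22 counts). On day 7, WT had 0.475, 0.857 and 1.02, and Cthrc1-/- had 1.125, 1.2998 and 0.145. The day 0 genotypes did not overlap, and WT day 0 held the highest group mean of the 4 (1.37 ± 0.44 FPKM, SD, n = 3). WT day 7 (0.786 ± 0.281) and Cthrc1-/- day 7 (0.857 ± 0.622) overlapped each other and WT day 0.

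In the fit with no filter, Mrgprb2 stood at a log2 difference of -2.14 ± 0.67 in Cthrc1-/- against WT on day 0 (edgeR adjusted p = 0.145), where 16.2% of the 34303 genes had an unadjusted p under 0.05. Each Cthrc1-/- sample was lower than each WT sample. DESeq2, also run without the filter, called 2934 genes there against 275 for edgeR. It called Mrgprb2 among them (adjusted p = 0.0181), and limma on log2(FPKM + 1) did not (adjusted p = 0.150). The log2 difference kept its sign in every alternative run, from -2.39 to -0.83 over all of them. With single libraries left out it ran from -2.39 to -1.86. It was -1.86 without Cthrc1-/- day 0 replicate 3. Between the days the log2 difference was -0.98 ± 0.65 in WT (edgeR adjusted p = 0.428) and 1.24 ± 0.66 in Cthrc1-/- (adjusted p = 0.527). The interaction was 2.23 ± 0.92 (edgeR adjusted p = 0.486), with 9.83% of genes at an unadjusted p under 0.05. A day difference that differs between the genotypes was thus not shown.

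The closest relatives of Mrgprb2 in sequence differed between the same groups, as seen after their values were read. The pseudogene Mrgprb11-ps, 76.3% identical to it over 993 bases of transcript, had 8.70, 11.7 and 12.8 FPKM in WT day 0 and 1.38, 0.745 and 0.284 in Cthrc1-/- day 0. On day 7 it ran from 0 to 3.03 FPKM in WT and from 0.0548 to 1.13 in Cthrc1-/-. Mrgprb3, 74.9% identical, ran from 1.41 to 2.37 FPKM in WT day 0 and from 0.236 to 0.550 in Cthrc1-/- day 0. In the fit with no filter the day 0 log2 differences were -3.80 ± 1.31 for Mrgprb11-ps (edgeR adjusted p = 0.178) and -2.43 ± 1.07 for Mrgprb3 (adjusted p = 0.291). Their longest identical runs with Mrgprb2 were 36 and 23 bases. How the authors' counting placed reads that fit more than 1 of these genes is not given in the sources used here, so the level of Mrgprb2 is uncertain to that extent, and the part of shared reads in its difference was not tested.

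Counted over all 8 genes, the FPKM of the groups compared did not overlap for 5 members between the days in WT (Cpa3, Cma1, Mcpt4, Tpsb2 and Fcer1a, all higher on day 7), against 16.9% of all genes with a count and 29.8% of the genes tested. In Cthrc1-/- there were 2 members higher on day 7 (Tpsb2 and Fcer1a), against 14.0% of genes with a count. On day 0, 2 members were lower in Cthrc1-/- (Tpsb2 and Mrgprb2), against 12.5%. On day 7 the genotypes overlapped for all 8, where 5.05% of genes lay higher and 2.3% lower in Cthrc1-/-.

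Tpsab1, the neighbour of Tpsb2 on chromosome 17, was all but silent. It encodes the tryptase mouse mast cell protease 7 (ENSMUSG00000024173, chr17:25343245-25345562, minus strand). C57BL/6 mice are known to carry a splice-site mutation in this gene that removes the enzyme, and RefSeq lists it as a transcribed pseudogene while GENCODE lists it as protein-coding. WT samples held 0, 16 and 4 counts on day 0 and 85, 0 and 9 on day 7, and Cthrc1-/- samples 12, 12 and 0 on day 0 and 13, 23 and 14 on day 7. The 1 sample above 23 counts was WT day 7 replicate 1, at 0.578 FPKM, and with it left out the log2 difference between the days in WT went from 2.28 ± 1.71 (edgeR adjusted p = 0.465) to -0.63. The log2 difference between the days in Cthrc1-/- was 0.66 ± 1.65 (edgeR adjusted p = 0.979).

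Because tryptase genes resemble each other, their coding sequences were compared to see whether reads could be told apart. The coding sequences of GENCODE M21 for Tpsb2 (828 bases) and Tpsab1 (930 bases) were 67.2% identical over their whole length, and in the best local match they shared 76.3% of 805 bases with no identical run longer than 39 bases. The 90-base stretch in which they differed most, at 41 bases, is printed from coding bases 240 to 329 of Tpsb2 and 342 to 431 of Tpsab1, with the differing bases in capitals.
Tpsb2: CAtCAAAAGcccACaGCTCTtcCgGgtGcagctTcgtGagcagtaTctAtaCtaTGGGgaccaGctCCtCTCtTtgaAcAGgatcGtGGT
Tpsab1: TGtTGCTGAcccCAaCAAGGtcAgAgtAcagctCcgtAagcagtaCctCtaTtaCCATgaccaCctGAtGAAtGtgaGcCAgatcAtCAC

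For the chymases the nearest relatives outside the set were at or near 0. The transcript most like Mcpt4 was Mcpt1 (86.7% identity over 739 bases), which had at most 8 counts in a sample, and Mcpt9 (84.0%) had 0 in all. Cma1 matched the predicted gene Gm48934 at 96.9% over 292 bases, and that gene was at 0 counts in every sample. Cma1 and Mcpt4 themselves were 62.9% identical.

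The 4 abundant proteases varied together from sample to sample. Over the 12 samples, log2(FPKM + 1) of any pair of them correlated at Pearson's r between 0.948 and 0.976 and Spearman's rho between 0.881 and 0.986, which describes samples that share groups and depth. The SD over samples of log2 Cma1 was 0.882, but that of its log2 ratio to Cpa3 in the same sample was 0.334. For Mcpt4 the same pair of values was 0.801 and 0.352, and for Tpsb2 it was 1.035 and 0.287. The ratio to Cpa3 still ran from 1.53 to 3.13 for Cma1, from 2.39 to 5.15 for Mcpt4 and from 0.615 to 1.251 for Tpsb2. In Cthrc1-/- day 0 replicate 3, where all 4 were lowest, the ratios to Cpa3 (2.96 for Cma1, 4.53 for Mcpt4 and 1.10 for Tpsb2) lay within the range of the other samples. Fcer1a tracked the proteases less closely (r between 0.781 and 0.855), Ms4a2 less again (0.611 to 0.716) and Mrgprb2 least (0.394 to 0.448).

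Relative to Cpa3, groups were separate in at least 1 comparison for Mrgprb2, Fcer1a and Mcpt4. The ratio of Mrgprb2 to Cpa3 was 0.186, 0.223 and 0.277 in WT day 0, and 0.0533, 0.0694 and 0.129 in Cthrc1-/- day 0. These groups did not overlap, and 3.83% of all genes with a count were as cleanly lower by this ratio. In WT day 7 the ratio was 0.0282, 0.0669 and 0.0940, also under all of WT day 0, but 35.4% of genes were lower in the same way, since Cpa3 itself was higher on day 7. The ratio of Fcer1a to Cpa3 was higher on day 7 in WT (0.0490 to 0.190, against 0 to 0.0383), as it was for 2.14% of genes. In Cthrc1-/- it was 0.1216 to 0.1616 on day 7 and 0 to 0.1214 on day 0, against 1.32% of genes, with a gap between the groups of almost nothing. Mcpt4 to Cpa3 was lower on day 7 in Cthrc1-/- (2.39 to 3.37, against 3.65 to 4.53), where 20.5% of genes were.

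**Figure D3:**
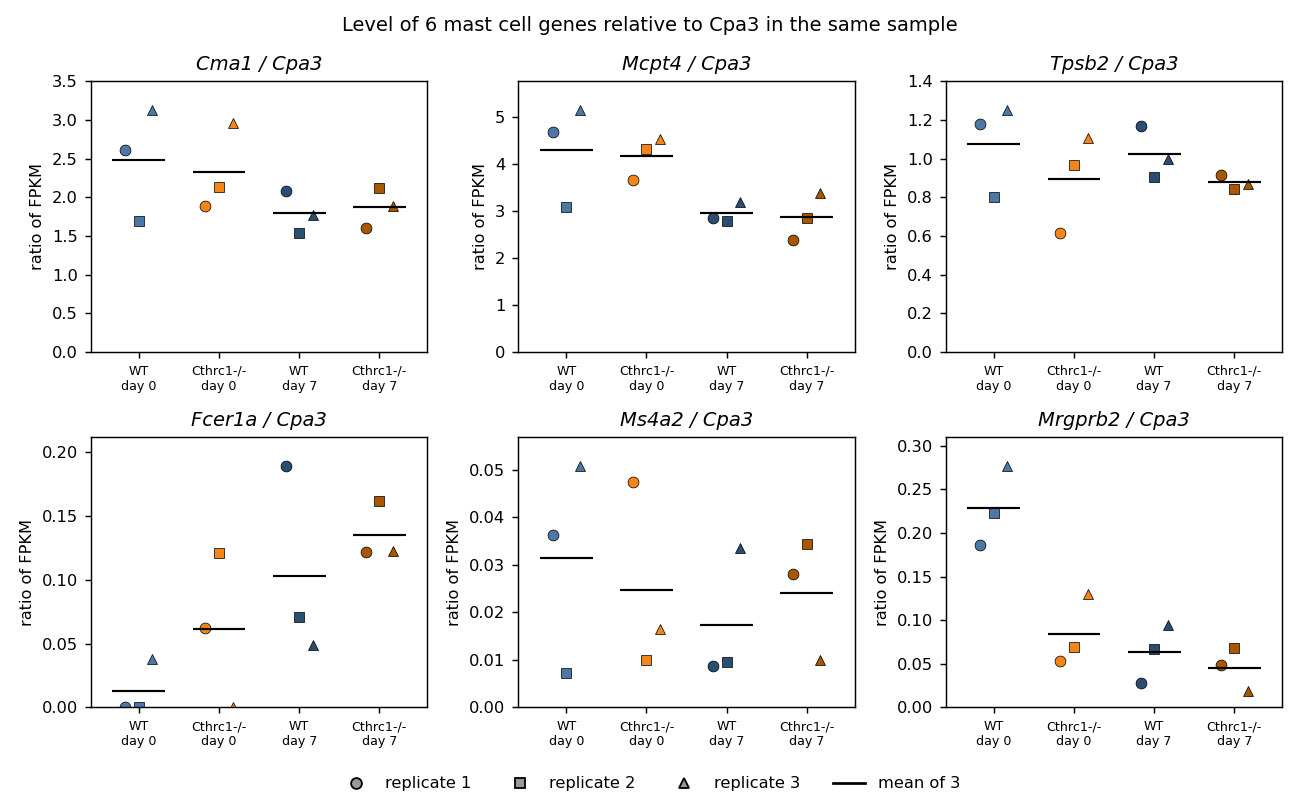
Ratio of the FPKM of 6 mast cell genes to that of Cpa3 in the same sample (linear axes from 0), by group; symbols are samples and lines the means of 3. The ratios run from 1.53 to 3.13 for Cma1, 2.39 to 5.15 for Mcpt4 and 0.615 to 1.251 for Tpsb2, that of Mrgprb2 is highest in the 3 WT day 0 samples (0.186 to 0.277), and that of Fcer1a is at 0 in 3 day 0 samples.

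Other genes of the mast cell programme were read from 3 lists. Of 15 genes for granule contents and mediator enzymes, 8 were tested and 0 were called by edgeR in any of the 5 comparisons; 2, 2, 2, 1 and 0 had an unadjusted p under 0.05 for genotype on day 0, genotype on day 7, days in WT, days in Cthrc1-/- and the interaction, where 28.4%, 5.46%, 32.5%, 18.1% and 15.1% of all genes tested did. Hdc, which makes histamine, was at 0.858, 1.06 and 0.832 FPKM in WT day 0 and at 1.002, 0.919 and 0.272 in Cthrc1-/- day 0. In day 7 samples WT had 67.5, 1.54 and 1.03, and Cthrc1-/- 2.46, 3.58 and 1.08. Srgn, the core protein of granule proteoglycans in mast cells and many leukocytes, was likewise far above the rest in WT day 7 replicate 1 (779 FPKM, against 28.0 and 14.1 in the other WT day 7 samples). The WT day differences of both genes (log2 4.61 ± 1.48 for Hdc, edgeR adjusted p = 0.0643, and 4.10 ± 1.31 for Srgn, adjusted p = 0.0632) include that library, whose neutrophil markers were also the highest. Without it they were 0.34 for Hdc and 0.32 for Srgn. Limma on log2(FPKM + 1) likewise called 0 of the 8 in each comparison, and DESeq2 0 of the 6 for which it gave an adjusted p, which left out Hdc and Srgn. The share of neutrophil RNA in these values was not tested.

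Receptors and Fc epsilon RI signalling held most of the calls of this programme. Of 17 listed genes 11 were tested. EdgeR called 1 of them higher in Cthrc1-/- on day 0 (3.51% of all genes tested) and 2 higher on day 7 in WT (6.04% of all genes). It called 0 for genotype on day 7, days in Cthrc1-/- and the interaction (0.021%, 1.46% and 0.014% of all genes). At an unadjusted p under 0.05 there were 2, 1 and 1 in those, beside 5.46%, 18.1% and 15.1% of all genes. DESeq2 called 0, 0 and 1 there, beside 0.433%, 9.84% and 4.76% of all genes, and limma on log2(FPKM + 1) called 0 in each. The 1 interaction call of DESeq2 was Kit, with a negative value. DESeq2 called Kit on day 0 (19.5% of all genes) and 6 genes higher on day 7 in WT (24.8%), namely Kit, Btk, Fcer1g, Lcp2, Lyn and Syk, and limma on log2(FPKM + 1) called 0 on day 0 and Kit alone between the days in WT. In WT 8 of the 11 had an unadjusted p under 0.05 between the days (32.5% of all genes did), and the median log2 difference of the list was 1.75. Without WT day 7 replicate 1 these were 4 of 11 (27.0% of all genes) and 0.63, and edgeR called Kit alone. Fcer1g was among the 8 at 1.69 ± 0.70 (edgeR adjusted p = 0.127), and at 0.49 without WT day 7 replicate 1. Kit, the receptor for stem cell factor and the growth receptor of mast cells and melanocytes, was the one called in both. WT samples had 0.732, 0.583 and 0.524 FPKM on day 0 and 2.33, 2.47 and 2.41 on day 7. Cthrc1-/- samples had 1.19, 2.28 and 5.51 on day 0 and 2.77, 2.55 and 2.83 on day 7. WT day 0 was the low group, separate from the other 3. Kit rose by a log2 value of 2.13 ± 0.41 in Cthrc1-/- against WT on day 0 (edgeR adjusted p = 0.0288) and 1.79 ± 0.40 from day 0 to day 7 in WT (adjusted p = 0.0207). Limma on log2(FPKM + 1) ended the day 0 call (adjusted p = 0.0565). With single libraries left out, these ran from 1.44 to 2.50 and from 1.69 to 1.92, and the calls were lost without any 1 of the WT day 0 replicates (adjusted p from 0.0846 to 0.112 and from 0.0570 to 0.0804). The day 0 call was also lost without Cthrc1-/- day 0 replicate 2 (adjusted p = 0.0526), and the WT day call without WT day 7 replicate 2 (adjusted p = 0.0506). For Kit the interaction of genotype and day was -2.04 ± 0.56 by edgeR (adjusted p = 0.202), and -1.34 without Cthrc1-/- day 0 replicate 3.

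No correlation of Kit with the proteases was computed. Like the abundant proteases, Kit was higher in every WT day 7 sample than in every WT day 0 sample. It parted from them in a library that stood apart. The Cthrc1-/- day 0 sample with the most Kit, replicate 3, had the least Cpa3, Cma1, Mcpt4 and Tpsb2 of all 12 samples. Melanocyte markers (Tyr, Dct, Pmel and Mlana) summed to between 9.64 and 11.97 FPKM on day 0 and between 53.3 and 138.1 on day 7 in WT mice. In Cthrc1-/- mice the sums lay between 29.9 and 114.2 on day 0 and between 48.5 and 166.6 on day 7, the highest day 0 sum being that of the same replicate. Of the 4, edgeR called 2 higher in Cthrc1-/- on day 0 (3.51% of all genes tested were). Without that replicate it called 0 (1.66% of all genes in either direction). On day 7 in WT it called 4 higher (6.04% of all genes). Their part in the Kit values was not tested. Il1rl1, the IL-33 receptor ST2, was called in WT (log2 4.64 ± 1.25, edgeR adjusted p = 0.0382), with 25.7 FPKM in WT day 7 replicate 1 against 1.38 and 0.847 in the others and 0.257 to 0.458 on day 0. Without that library the value was 1.5 and was not called (adjusted p = 0.107), and the call was also lost without any 1 of the WT day 0 replicates (adjusted p from 0.110 to 0.124). Limma on log2(FPKM + 1) did not call it (adjusted p = 0.125), and DESeq2 gave it no adjusted p.

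Growth and lineage genes showed no common direction. Of 10 listed genes 4 were tested. Mitf, a transcription factor of mast cells and melanocytes, fell from day 0 to day 7 in WT (log2 -0.64 ± 0.18, edgeR adjusted p = 0.0414), 1 of 4 where 7.1% of all genes tested were called lower, and edgeR called 0 of 4 in the other comparisons (2, 0, 1 and 1 at an unadjusted p under 0.05 for genotype on day 0, genotype on day 7, days in Cthrc1-/- and the interaction, beside 28.4%, 5.46%, 18.1% and 15.1% of all genes). DESeq2 called Mitf too (adjusted p = 0.0105, with 24.8% of all genes called). Scaling to total counts ended that call (log2 -0.42, adjusted p = 0.149), as did limma on log2(FPKM + 1) (adjusted p = 0.127), and it was lost without WT day 7 replicate 1 (log2 -0.40, adjusted p = 0.143), without WT day 7 replicate 2 (adjusted p = 0.0701) and without any 1 of the WT day 0 replicates (adjusted p from 0.0921 to 0.118). Gata2 had 1.75, 1.51 and 1.82 FPKM in WT day 0 and 0.808, 0.631 and 0.267 in Cthrc1-/- day 0, with no overlap and a log2 difference of -1.65 ± 0.53 that missed the threshold (edgeR adjusted p = 0.0857) and was -1.29 without Cthrc1-/- day 0 replicate 3. DESeq2 called it, as it did 19.5% of all genes tested, and limma on log2(FPKM + 1) called 0 of the 4 genes in each comparison. On day 7 it had 1.35, 1.26 and 0.597 in WT and 1.67, 2.52 and 0.799 in Cthrc1-/-, where the genotypes overlapped. Its interaction of genotype and day was 2.18 ± 0.74 (edgeR adjusted p = 0.242). Kitl, which encodes stem cell factor, ran from 4.43 to 9.41 FPKM with log2 values between -0.09 and 0.38 in the 5 comparisons. The cytokine genes that act on mast cells, Il3, Il4 and Il13, did not pass the filter.

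**Figure D4:**
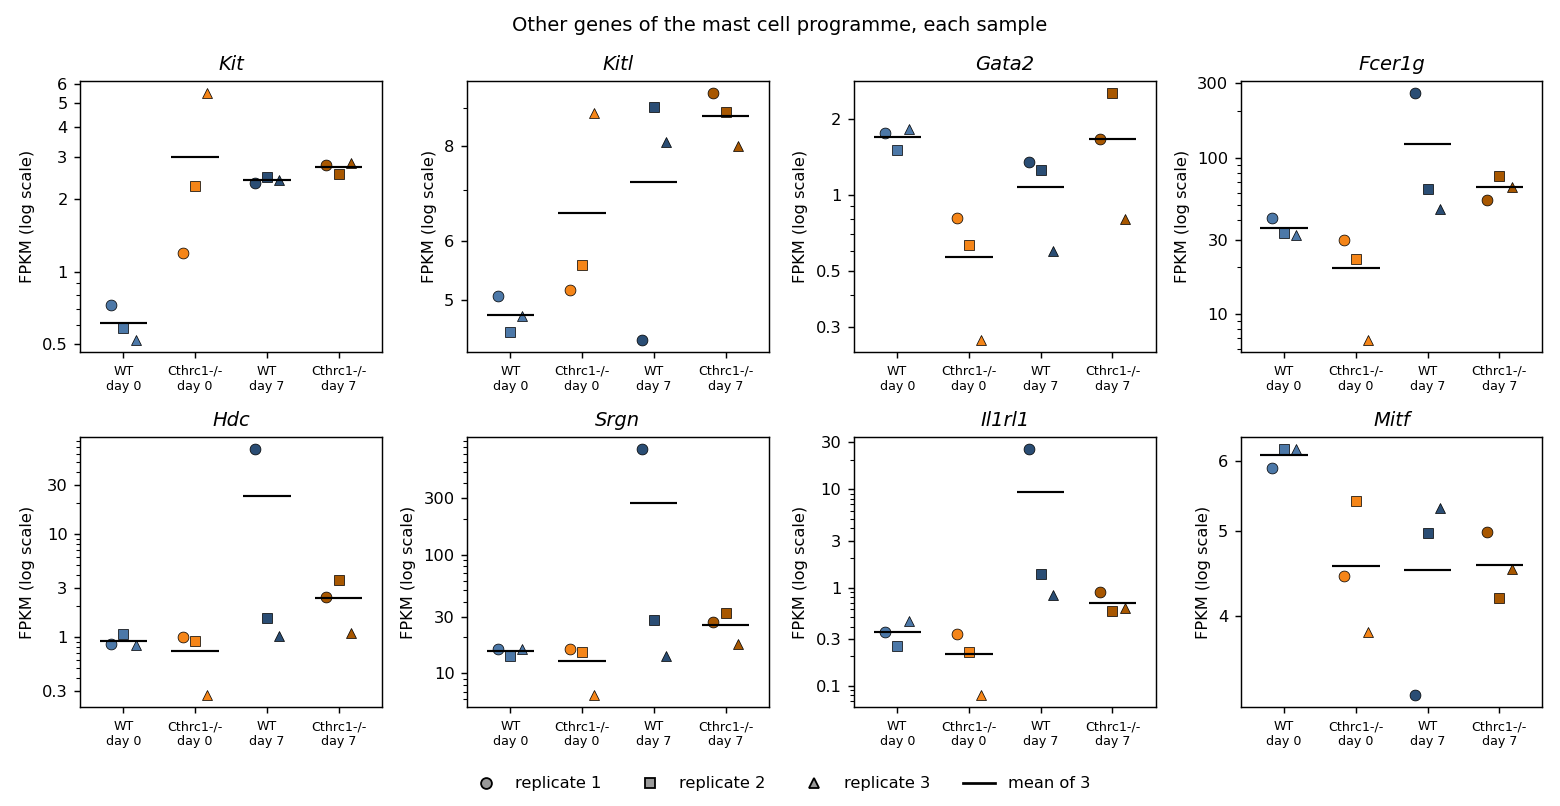
FPKM of 8 further genes of the mast cell programme by sample (log axes), with the mean of 3 as a line. Kit is lowest in the 3 WT day 0 samples, Gata2 is lower in all Cthrc1-/- day 0 samples than in WT day 0, and Hdc, Srgn and Il1rl1 have 1 WT day 7 sample far above the other 11.

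Genes outside the set with the pattern most like it were found by Pearson's r over the 12 samples with the mean log2(FPKM + 1) of the 5 members that passed the filter. The closest were P2rx1 (r = 0.963), Sp110 (0.953), Stk10 (0.952), Hip1 (0.949) and Ccl8 (0.949). Of 14298 genes 113 had r above 0.9, and the median was 0.0999. Ccl8, a chemokine, was the most abundant of the 5, at a mean of 142 FPKM on day 0 and 253 on day 7 in WT, and of 117 and 255 in Cthrc1-/-. P2rx1, an ATP-gated ion channel, was at 0.913 and 1.402 FPKM in WT and at 0.5795 and 2.11 in Cthrc1-/-. The 12 points share groups and libraries, and r is given as a description. Fcer1a is among the 5 members of the profile, and its day 7 levels carried it past the filter. The likeness without it was not computed.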

How the data were processed

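RNA was selected on poly(A) and made into strand-marked (dUTP) paired-end libraries with molecular identifiers, per the labels' protocols. The submitters' processing notes name cutadapt 1.9, HISAT2 2.0.4, UMI-tools, StringTie 1.3.4d, DESeq2, edgeR and the build GRCm38, without roles. The authors deposited whole-number counts and FPKM per gene and sample in 1 table; a count of 0 carried an FPKM of 0.0001, read here as 0. Counts of 4 were 3.16 to 4.05 times as frequent as counts of 3 and 5, so a low count is not always 1 fragment. Unused sample columns numbered 0. GENCODE M21 named 55141 of 55401 gene IDs and gave positions.

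Groups came from the sample titles. The main test was the quasi-likelihood test of edgeR 4.0.16 in R 4.3.3 (TMM, 1 mean per group, no covariate, genes whose mean FPKM was 1 or more, Benjamini-Hochberg adjustment); SEs are the log2 change over the root of F. The code was tested on simulated data. Alternatives were DESeq2 1.42.0, limma 3.58.1 on log2(FPKM + 1) and log2(FPKM + 0.1), total-count scaling, no filter, edgeR's own count filter, a replicate block, only the compared groups, each library left out and, chosen after seeing the data, counts divided by 4 and both outlying libraries left out. Members and lists were chosen with earlier results of these data known. All members were named; from the lists, called genes and Kit, Kitl, Fcer1g, Hdc, Gata2, Srgn and Il1rl1 were named, and the 5 genes most like the set. Other genes were named after their values were seen. Floors cover counting error only.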

Additional observations from a re-analysis of the deposited data

How the results depend on the processing

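Of 665 member values under an alternative, 622 kept their sign and side of the threshold, 8 came past the threshold and 35 changed sign. Under the filter, the count of members called between the days in WT was 1 with DESeq2 and 1 with limma on log2(FPKM + 0.1), against 0 with edgeR. In Cthrc1-/- it was 2 with DESeq2 and 1 each with limma on log2(FPKM + 1), limma on log2(FPKM + 0.1) and total-count scaling, against 0. Of all genes tested they called 1409, 775, 773 and 747 in that order, and the main fit 209. Sign changes of Cthrc1-/- against WT on day 7 were 0.06 for Tpsb2 with total-count scaling and -0.19 for Mrgprb2 with limma on log2(FPKM + 0.1), and the interaction of Fcer1a was 0.10 with limma on log2(FPKM + 1).

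With both outlying libraries left out (WT day 7 replicate 1 and Cthrc1-/- day 0 replicate 3), edgeR called 0 members in each comparison. The genotype difference on day 0 was then 0.08 for Cpa3, 0.01 for Mcpt4 and 0.33 for Ms4a2. On day 7 it was 0.35 for Tpsb2, 1.74 for Tpsab1 and -0.17 for Mrgprb2. Tpsab1 between the days in WT was -0.64, and its interaction 0.72. With single libraries left out, ranges that crossed 0 were, for genotype on day 0, -0.96 to 0.04 (Cpa3), -0.14 to 1.65 (Tpsab1) and -2.16 to 0.34 (Ms4a2), while Mcpt4 ran from -0.88 to -0.03. For genotype on day 7 they were -0.11 to 0.54 (Cpa3), -0.06 to 0.63 (Cma1), -0.07 to 0.38 (Mcpt4), -0.41 to 0.36 (Tpsb2), -1.79 to 1.74 (Tpsab1), -0.02 to 1.62 (Fcer1a) and -0.34 to 0.58 (Mrgprb2). Between the days in WT they were -0.63 to 3.51 (Tpsab1) and -0.41 to 0.70 (Ms4a2), and for the interaction -2.86 to 1.28 (Tpsab1). The cause was not tested.

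Replicate numbers recur in all groups, but same-numbered samples did not deviate together: over the 12 pairs of groups and numbers the correlation of their deviations ran from -0.232 to 0.426. With a replicate block 0 members were called in each comparison, the lowest adjusted p being 0.0705, between the days in Cthrc1-/-. Under the block Tpsab1 on day 0 was -0.07 and Mrgprb2 on day 7 was -0.13. Counts of Tpsab1 and Ms4a2 reached at most 85 and 143, and a depth effect on their wide SEs was not tested.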
